A study of Homo sapiens with 9 samples.

Results

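SR proteins and heterogeneous nuclear ribonucleoproteins (hnRNPs) were examined at the mRNA level in HEK293T cells expressing wild-type or mutant p53. The genes were selected by a rule on their names, set with earlier results of these data known. It took every protein-coding gene of the table whose symbol is SRSF followed by a number, TRA2A or TRA2B, or begins with HNRNP. This gave 41 of 78986 genes, of which 12 were SRSF genes, 2 were TRA2 genes and 27 were HNRNP genes. The study asked how hotspot mutant p53 relates to RNA-binding proteins. It names SRSF2 and TRA2B among proteins enriched near mutant p53 by proximity labeling in transiently transfected cells. That measures where proteins lie, not the mRNA levels of stable lines read here.

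RNA-seq was performed on 9 libraries, 3 biological replicates for each of 3 stable lines. The lines overexpressed wild-type p53 (WT), p53 with the G245S change or p53 with the R273H change, both changes lying in the DNA-binding domain. The sample labels call the line HEK 293 and its culture HEK293T, a human embryonic kidney line that carries the SV40 large T antigen, a viral protein that binds p53. All 3 lines were made by lentiviral transduction and kept in puromycin at 1.5 µg/mL, so a parental line without the vector is not among the samples, and the lines are not described as single clones. Whether replicates came from separate transductions is not given in the sources used here, and p-values then measure the spread between these samples, which may be technical.

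SR proteins carry RNA recognition motifs and a domain rich in arginine and serine, bind enhancers in exons and recruit the spliceosome to nearby splice sites. The transformer-2 proteins TRA2A and TRA2B act in the same way on purine-rich enhancers. hnRNPs coat nascent transcripts, often silence splice sites and also act in mRNA export, stability and translation. Many genes of both families tune their own level through alternatively spliced exons that send the mRNA to decay, so transcript level and protein level need not move together.

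One library stood apart before any comparison. WT replicate 3 held 1486315 counts against 7325514 to 9667306 in the other 8 libraries, and it was left out of the fits by a rule on depth. The line's own markers were detected in all 9 libraries, with a summed level of 806 to 1059 CPM for KRT8, KRT18, VIM, NEFL, NEFM and CDH2. The highest of these sums was that of WT replicate 3. Its KRT18 was at 161 CPM, beside 58.8 to 68.8 CPM in the fitted libraries, and its KRT8 was also above theirs. Markers of leukocytes summed to 0.713 to 1.78 CPM in the fitted libraries and 8.43 CPM in WT replicate 3, with CD3E at 0 in all 9. Endothelial markers summed to at most 0.703 CPM and fibroblast markers to between 19.9 and 67.0 CPM. MDM2 and PHLDA3, 2 targets of p53, were lower in both mutants, but they were chosen from earlier results of these data and are therefore no independent check of the labels: the differences were -0.82 ± 0.088 (log2 fold change ± SE) and -2.21 ± 0.14 in G245S and -0.90 ± 0.088 and -2.07 ± 0.14 in R273H, all past the threshold. CPM here is the count scaled by TMM to a common library size, and in bulk samples fewer cells of a type and less RNA per cell cannot be told apart.

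The 3′UTRs of these genes were searched for GGCUGG, the 6 bases at the centre of a longer consensus that the study derived from crosslinking p53 to RNA, to see which of these transcripts carry them. The 6 bases alone are a looser criterion than that consensus. The paper places the consensus in the antisense Alu element, an abundant repeat, and interprets it as marking structured RNA, not as a recognised sequence. Whether the matches found here lie in Alu repeats was not tested. In the canonical transcript of each gene in GENCODE release 44, read on the transcript strand, 16 of 41 genes (39.0%) held at least 1 match, beside 43.3% of 19538 protein-coding genes. The genes had 0.301 matches per kb of 3′UTR against 0.589 over all protein-coding genes, and their median 3′UTR was 1532 bases long against 1064. Counting a match on either strand gave 20 of 41 genes (48.8%) and 58.7% of all protein-coding genes. SRSF2 had 0 matches in a 3′UTR of 1051 bases, which says only that these letters are not in that window. TRA2B had 2 matches in 3157 bases. The windows below, of 30 bases each on GRCh38 with the match in capitals, belong to the genes whose levels are described first or whose fitted differences were among the lowest.
TRA2B, the second match, chr3:185914765-185914794, minus strand: gaggatggattaGGCTGGatttattagcag
HNRNPR, chr1:23309439-23309468, minus strand: caaataaaatgtGGCTGGgaaagcagactg
SRSF6, chr20:43464085-43464114, plus strand: tcggctttaaatGGCTGGctggttactgtt
HNRNPA0, chr5:137746046-137746075, minus strand: tatctggcctgaGGCTGGtatcttttagag
SRSF10, chr1:23970641-23970670, minus strand: atgtctaggcccGGCTGGgcgtggtggctc

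The second SRSF6 match overlaps the first, since the window reads GGCTGG and then ctgg. The SRSF10 window ends in tggctc, and so do 5 of the 25 windows found, in SRSF3, SRSF10, SRSF12 and HNRNPU. These are descriptions of the sequence and carry no measurement of binding.

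The 41 genes together took between 1.26% and 1.35% of all counts in the 8 fitted libraries. HNRNP genes made up 0.921% to 0.991% of the counts and SRSF and TRA2 genes 0.342% to 0.368%. By CPM, HNRNPA1 was the highest, with 1132 to 1300 CPM over the fitted libraries, followed by HNRNPU with 809 to 976 CPM and HNRNPA2B1 with 721 to 799 CPM. Per kb of canonical transcript, the order differed: SRSF9 came first with a mean of 441 CPM per kb, then HNRNPAB with 384 and HNRNPA1 with 323. HNRNPA1L2 (3.89 CPM per kb) and SRSF12 (4.04 CPM per kb) were the lowest of the genes tested. Dividing by length assumes that reads rise with transcript length and that the canonical transcript is the one expressed, and neither was tested. All of these levels are pooled over transcripts of a gene, so exon inclusion is not visible in them.

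37 of the 41 genes passed the filter on low counts in every comparison. The 4 that did not were HNRNPCL1, HNRNPCL2, HNRNPCL3 and HNRNPCL4, copies of HNRNPC that lie close together and share sequence. HNRNPCL1 reached at most 0.703 CPM in any library. HNRNPCL3 and HNRNPCL4 had identical values in all 9 libraries, at most 0.357 CPM, which is at the floor of 3 counts or under it (0.306 to 0.410 CPM in the fitted libraries, 2.11 CPM in WT replicate 3), and their shared reads cannot be assigned to either copy. HNRNPCL2 had a fractional count of 0.5 in WT replicate 2, which rounded to 0, and 0 in the other 8.

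The genes that were tested varied little between libraries. The coefficient of variation over the 8 fitted libraries, across all 3 groups, ran from 1.75% for HNRNPF to 11.7% for HNRNPA1L2. HNRNPF, which binds runs of guanine, measured 361 and 365 CPM in the fitted WT libraries, 356, 360 and 354 CPM in G245S and 356, 349 and 368 CPM in R273H, with 254 CPM in WT replicate 3. Its 8 fitted libraries thus lay within a factor of 1.06 of each other, whereas those of HNRNPA1L2, counted at only 4.11 to 6.18 CPM, spanned a factor of 1.50.

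**Figure D1:**
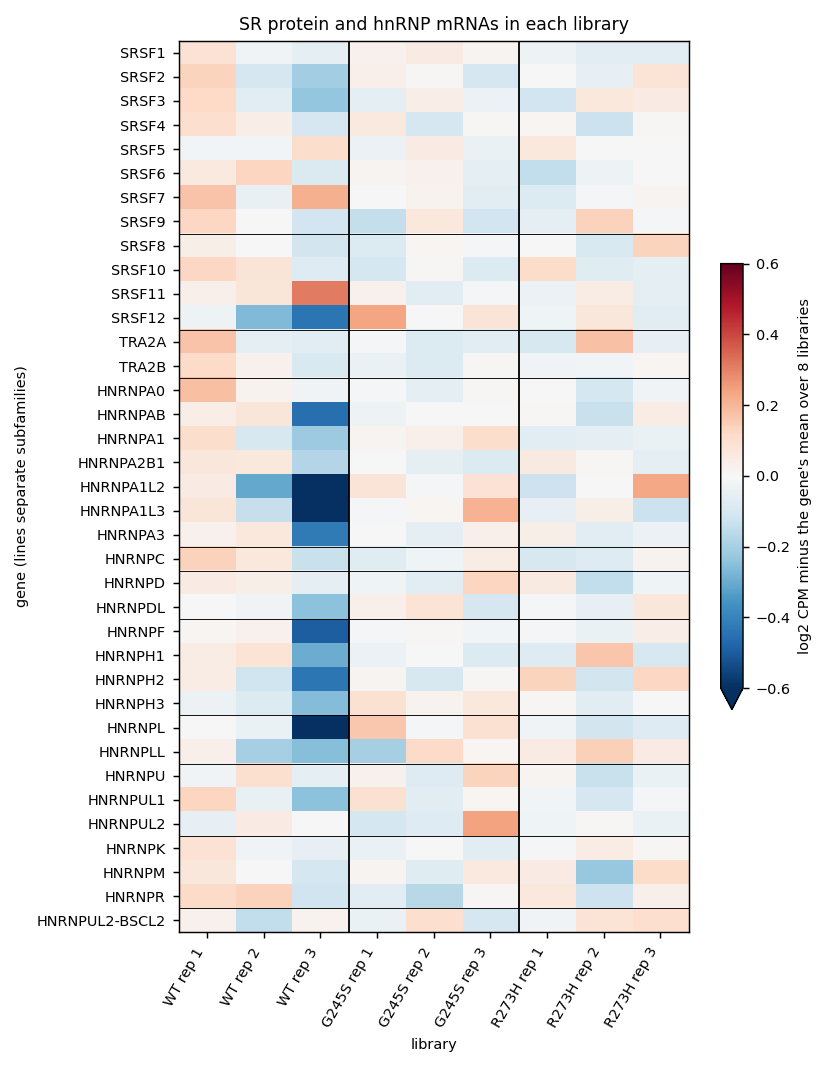
Each row is one of the 37 genes tested and each column one of the 9 libraries; colour gives log2 CPM minus the gene's mean over the 8 fitted libraries, and values under -0.6 are drawn in the darkest blue. The fitted libraries are pale in every group, while WT replicate 3, left out of the fits, is blue for most HNRNP genes and red for SRSF5, SRSF7 and SRSF11.

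SRSF2, an SR protein of nuclear speckles, did not pass the test in either mutant. It measured 456 and 388 CPM in the fitted WT libraries, 425, 419 and 388 CPM in G245S and 418, 403 and 441 CPM in R273H, with 360 CPM in WT replicate 3. All 6 mutant libraries lay between the 2 fitted WT libraries. The fitted difference from WT was -2.26% with a 95% interval from -16.1% to 13.8% in G245S (edgeR quasi-likelihood test, adjusted p = 0.977) and -0.349% with a 95% interval from -14.0% to 15.5% in R273H (edgeR, adjusted p = 0.999). These intervals bound the change in SRSF2 mRNA at this depth, but they do not show that the level was the same.

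TRA2B, an enhancer-binding cofactor of SR proteins, measured 267 and 251 CPM in the fitted WT libraries, 240, 232 and 247 CPM in G245S and 243, 244 and 248 CPM in R273H, with 231 CPM in WT replicate 3. Every fitted mutant library was below both fitted WT libraries, and WT replicate 3 was below all of them. The fitted difference was -6.84% with a 95% interval from -18.5% to 6.49% in G245S and -5.27% with a 95% interval from -16.7% to 7.75% in R273H, and neither passed the test (edgeR, adjusted p = 0.890 and 0.982). Its paralog TRA2A gave -0.10 ± 0.095 and -0.045 ± 0.10 (log2 fold change ± SE) with overlapping groups.

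In G245S against WT, 0 of the 37 genes passed an adjusted p of 0.05 (edgeR quasi-likelihood test with Benjamini-Hochberg adjustment over 15893 genes), where 20 genes in all, or 0.126%, did. At an unadjusted p under 0.05 the count was also 0, beside 6.66% of all genes tested, and DESeq2 called 0 as well, with 1 gene at an unadjusted p under 0.05. The lowest p belonged to HNRNPR, a relative of SYNCRIP that acts in mRNA transport and splicing. HNRNPR measured 301 and 306 CPM in the fitted WT libraries, 266, 247 and 279 CPM in G245S and 290, 255 and 284 CPM in R273H, with 256 CPM in WT replicate 3. All 3 G245S libraries were below both fitted WT libraries, but the value of WT replicate 3 lay among them. Its fitted difference was -12.6% with a 95% interval from -23.8% to 0.402% (edgeR, adjusted p = 0.757).

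The next lowest in G245S were SRSF10, which represses splicing when it loses its phosphates, with -0.15 ± 0.087, and SRSF9, a classical SR protein, with -0.12 ± 0.10 (log2 fold change ± SE). The highest was SRSF12, a close relative of SRSF10 with low expression. SRSF12 measured 14.1 and 11.9 CPM in the fitted WT libraries, 17.1, 14.4 and 15.3 CPM in G245S and 14.2, 15.2 and 13.8 CPM in R273H, with 10.5 CPM in WT replicate 3. Every G245S library exceeded all 3 WT libraries, and the fitted difference was 20.4% with a 95% interval from -2.45% to 48.6% (edgeR, adjusted p = 0.779). HNRNPA1L2, an intronless relative of HNRNPA1, followed with 0.18 ± 0.21, and HNRNPH3, of the family that binds guanine runs, with 0.13 ± 0.089.

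In R273H against WT, 0 of the 37 genes passed the same test (edgeR, 16022 genes), beside 22 genes in all, or 0.137%. The count at an unadjusted p under 0.05 was 0, beside 6.11% of all genes tested, and DESeq2 gave 0 on both counts. The lowest values were those of HNRNPC, SRSF6 and HNRNPA0. HNRNPC, which binds uridine tracts and keeps the splicing machinery off cryptic exons, measured 724 and 687 CPM in the fitted WT libraries, 626, 647 and 678 CPM in G245S and 615, 624 and 667 CPM in R273H, with 599 CPM in WT replicate 3. The fitted WT libraries were the highest 2 of the 9 and WT replicate 3 was the lowest. The fitted difference was -9.83% with a 95% interval from -21.7% to 3.83% in R273H (edgeR, adjusted p = 0.932) and -0.11 ± 0.097 on the log2 scale in G245S.

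SRSF6, a classical SR protein with a pair of RNA recognition motifs, measured 125 and 131 CPM in the fitted WT libraries, 122, 122 and 116 CPM in G245S and 109, 118 and 120 CPM in R273H, with 113 CPM in WT replicate 3. It had the lowest p in R273H (edgeR, adjusted p = 0.922), and all 3 R273H libraries were below both fitted WT libraries. HNRNPA0, a member of the A/B family that also binds AU-rich mRNAs, differed by -0.14 ± 0.091 (log2 fold change ± SE). The highest in R273H were HNRNPA1L2 with 0.17 ± 0.22, HNRNPLL, a CA-repeat binder known for exon skipping in lymphocytes, with 0.16 ± 0.10, and SRSF12 with 0.14 ± 0.13. HNRNPLL measured 40.3 and 34.3 CPM in the fitted WT libraries, 34.3, 42.9 and 39.9 CPM in G245S and 40.9, 43.7 and 40.9 CPM in R273H, with 33.0 CPM in WT replicate 3, and the lowest R273H library was above the highest WT library by less than 1 CPM.

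In R273H against G245S, 0 of the 37 genes and 0 of 15614 genes in all (0%) passed an adjusted p of 0.05 (edgeR). At an unadjusted p under 0.05 the counts were 0 genes, beside 4.75% of all genes tested, and DESeq2 gave 0 calls with 1 gene at an unadjusted p under 0.05. HNRNPL, which binds CA-rich RNA, had the lowest p here. HNRNPL measured 392 and 382 CPM in the fitted WT libraries, 440, 391 and 419 CPM in G245S and 387, 365 and 372 CPM in R273H, with 248 CPM in WT replicate 3. All 3 R273H libraries were below all 3 G245S libraries, WT replicate 3 was below all of the others, and the fitted difference was -10.6% with a 95% interval from -20.4% to 0.544% (edgeR, adjusted p = 0.994). The fitted WT libraries overlapped both groups.

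Next lowest between the mutants were SRSF12 with -0.13 ± 0.12 and HNRNPA1L3, another relative of HNRNPA1, with -0.13 ± 0.083. The highest were HNRNPLL with 0.10 ± 0.091, SRSF9 with 0.084 ± 0.087 and HNRNPH2 with 0.069 ± 0.083 (log2 fold change ± SE). HNRNPLL and HNRNPL, which are paralogs, thus stood at opposite ends of this comparison, although neither passed the test.

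**Figure D2:**
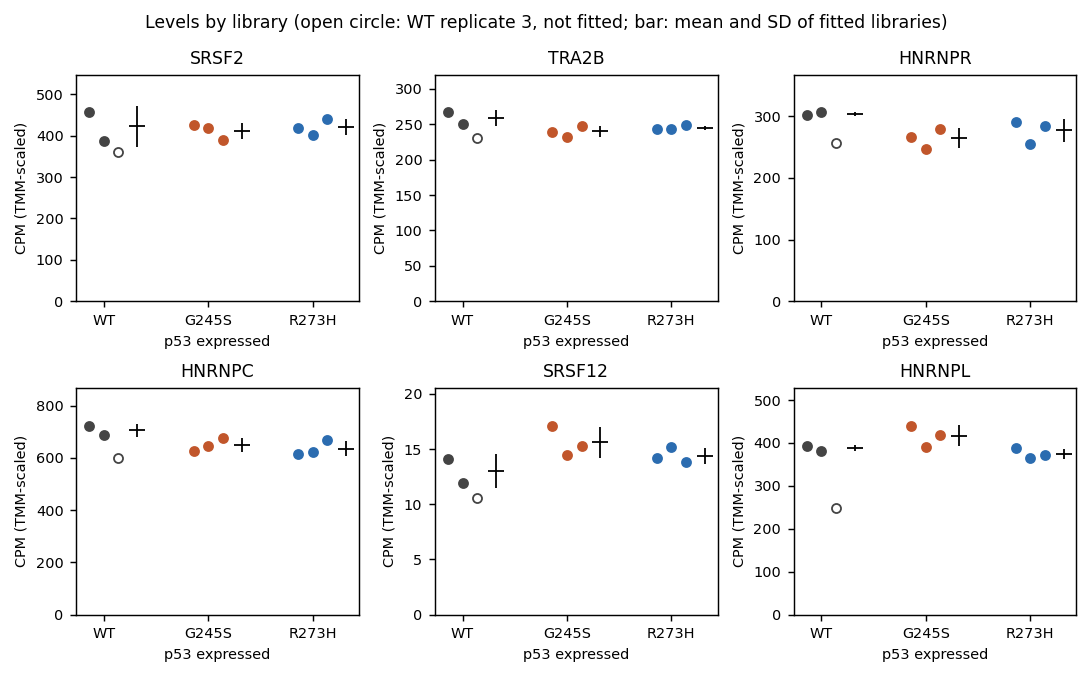
Points give TMM-scaled CPM for 6 genes in each library by the p53 expressed, the open circle is WT replicate 3, and each cross is the mean and SD of the fitted libraries (n = 2 for WT, n = 3 for each mutant). SRSF2 libraries overlap between groups, HNRNPR is lower in G245S than in the fitted WT libraries, and WT replicate 3 is the lowest HNRNPL library at 248 CPM.

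The intervals were narrow enough to bound most changes. The 95% interval lay within ±0.5 on the log2 scale for 35 of 37 genes in G245S, 36 in R273H and 37 between the mutants. The exceptions were HNRNPA1L2 in both comparisons with WT and SRSF12 in G245S, the genes with the lowest levels. A fitted change of more than 0.2 in either direction was found for 1 of 37 genes in G245S (SRSF12), 0 in R273H and 0 between the mutants, where 28.4%, 25.7% and 21.0% of all genes tested exceeded it. Of the 15433 genes tested in every comparison, 3814 had a mean of at least 50 CPM, and lower levels bring wider errors, so the shares describe precision as well as change.

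**Figure D3:**
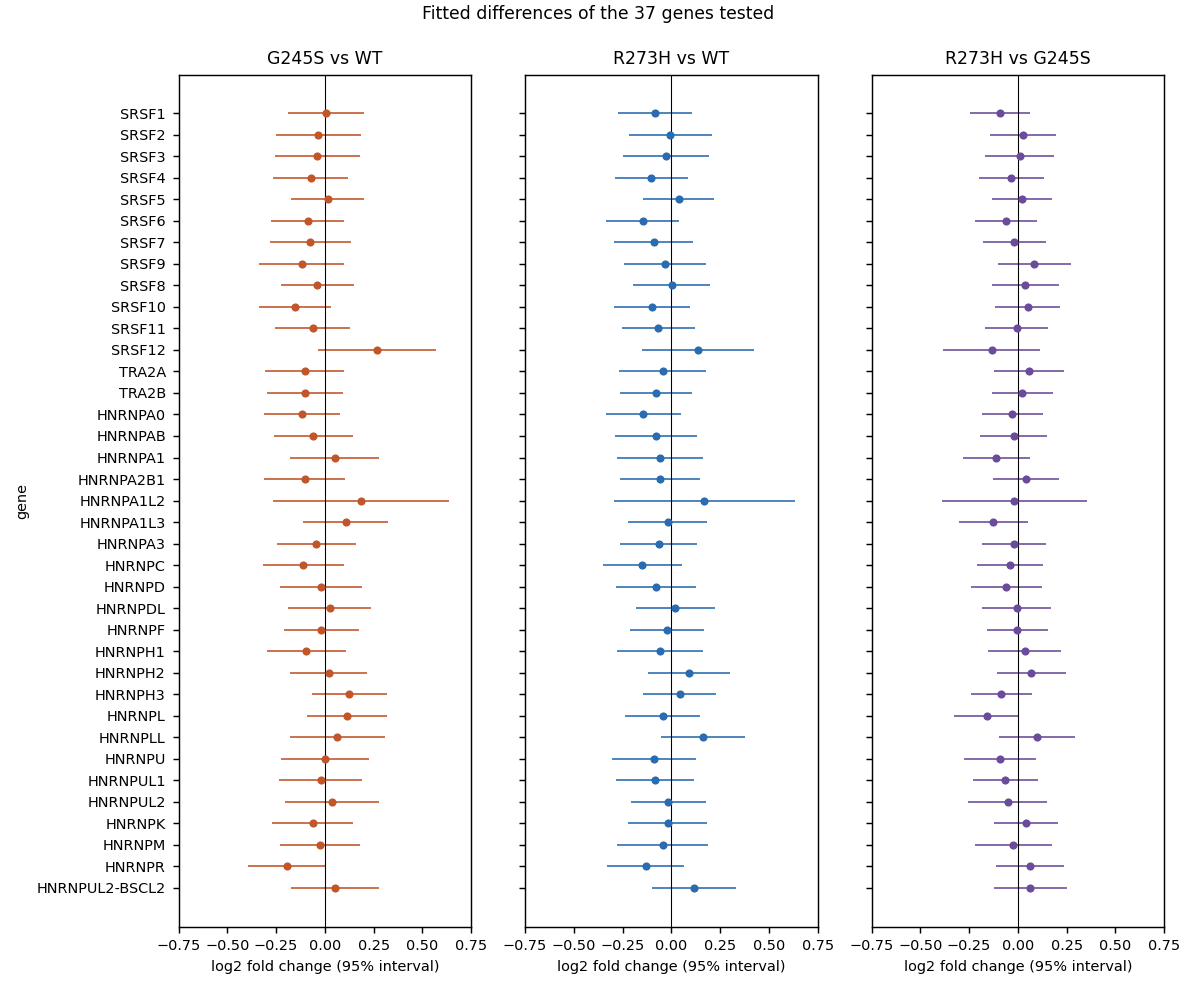
Points give the fitted log2 fold change of each of the 37 genes in each comparison and bars its 95% interval from the edgeR quasi-likelihood fit. Every interval crosses 0, and the widest belong to HNRNPA1L2 and SRSF12.

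Small differences leaned to one side when only the fitted libraries were read. In G245S, 24 of the 37 fitted values were below 0 and the median was -0.033, beside a median of 0.0034 over all genes tested, 49.2% of which were below 0. In R273H, 28 of 37 were below 0 and the median was -0.046, beside 0.0023 and 49.3%. Between the mutants 22 of 37 were below 0, with a median of -0.018 beside -0.0048 and 51.7%. Both mutant comparisons share the same WT libraries, so the lean in one is not independent of that in the other. The median deviation of these genes from their fitted mean was 0.057 (log2) in WT replicate 1 and -0.0044 in WT replicate 2. For all genes with a mean of at least 50 CPM it was 0.037 and -0.020. Without WT replicate 1, 19 of 37 values were below 0 in each mutant, with medians of -0.0026 in G245S and -0.0060 in R273H. Without WT replicate 2, 28 and 29 were below 0, with medians of -0.057 and -0.073.

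All 3 G245S libraries were below both fitted WT libraries for 11 of 37 genes, beside 10.8% of all genes tested, and above for 2, beside 11.3%. The 11 were SRSF6, SRSF10, SRSF11, TRA2B, HNRNPA0, HNRNPA2B1, HNRNPAB, HNRNPC, HNRNPF, HNRNPH1 and HNRNPR. In R273H the counts were 8 below, beside 10.5%, and 2 above, beside 10.2%. The 8 were SRSF1, SRSF4, SRSF6, TRA2B, HNRNPA0, HNRNPA2B1, HNRNPC and HNRNPR. R273H libraries were all below the G245S libraries for 4 genes, SRSF1, HNRNPA1, HNRNPH3 and HNRNPL, beside 4.36%, and all above for 0, beside 4.65%.

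These counts rested on which WT libraries were read. With WT replicate 3 included, G245S was below all 3 WT libraries for 1 gene, SRSF11, beside 5.85% of all genes tested, and above for 2, HNRNPH3 and SRSF12, beside 6.47%. R273H was below for 0 genes, beside 5.78%, and above for 1, HNRNPLL, beside 6.21%. With all 3 WT libraries in the fit, the median difference was 0.023 in G245S and 0.0062 in R273H, above 0 in place of below it. No direction can therefore be given for the families as a whole.

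**Figure D4:**
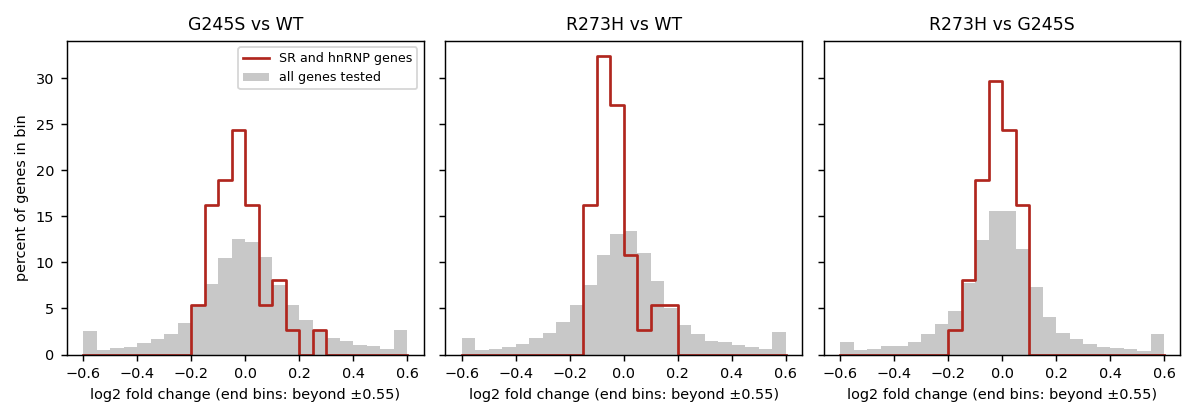
Histograms of the fitted log2 fold change in each comparison, as the percent of genes per bin of 0.05, for the 37 genes (red line) and all genes tested (grey). The 37 genes lie between -0.19 and 0.27 in G245S, between -0.15 and 0.17 in R273H and between -0.16 and 0.097 between the mutants, inside the wider spread of all genes.

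WT replicate 3 itself was low for hnRNP mRNAs. It was the lowest of the 9 libraries for 15 of 23 HNRNP genes and the highest for 0, and the lowest for 5 of 14 SRSF and TRA2 genes and the highest for 3. Together these were 20 of 37 lowest, beside 31.8% of all genes tested, and 3 highest, beside 28.1%. Among genes with a mean of at least 50 CPM, 41.7% were lowest and 19.0% highest in that library. Its median deviation from the mean of the fitted libraries was -0.25 on the log2 scale for HNRNP genes, -0.088 for SRSF and TRA2 genes, -0.0088 for all genes tested and -0.087 for genes with a mean of at least 50 CPM. The median of the SRSF and TRA2 genes was thus close to that of abundant genes.

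The deficit was uneven over the families. Against the mean of the other WT libraries, WT replicate 3 held 0.641 times the level of HNRNPL and 0.663 times that of HNRNPA1L3. It held 0.701 times the level of HNRNPF and 0.702 times that of HNRNPAB. The ratio for HNRNPA1L2 was 0.591, but it rested on a count of 3.62 (2.81 CPM), near that library's floor of 2.11 CPM. For HNRNPUL2 the ratio was 1.00, and for SRSF11, a nuclear SR-related protein, it was 1.2. The same library held 54.8 CPM of KRT8, beside 9.65 to 12.1 CPM in the others, and 161 CPM of KRT18, beside 58.8 to 68.8 CPM. It also held 7.03 CPM of LYZ, beside at most 0.258 CPM. The part of depth and of these transcripts in its low hnRNP values was not tested.

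Read by subfamily, the fitted differences stayed small. The 8 classical SR genes (SRSF1 to SRSF7 and SRSF9) had a median of -0.056 in G245S, with 6 below 0, and -0.060 in R273H, with 7 below 0. Within them, SRSF1, which acts in splicing, export and translation, gave 0.0046 ± 0.091 in G245S and -0.085 ± 0.089 in R273H, and SRSF3, an adaptor for mRNA export, gave -0.04 ± 0.10 and -0.028 ± 0.10. SRSF5 was the highest of the 8 in both comparisons, with 0.015 ± 0.087 and 0.038 ± 0.085. SRSF7, also an export adaptor, gave -0.075 ± 0.097 and -0.092 ± 0.095, and SRSF4 gave -0.073 ± 0.09 and -0.10 ± 0.088 (log2 fold change ± SE). SRSF8, an expressed copy of SRSF2, was close to 0 in R273H (0.00074 ± 0.093). The genes of this paragraph and the next that no list end or level had named were chosen after their values were seen.

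The 7 genes of the hnRNP A/B family, which bind silencer elements in exons and introns, had a median of -0.044 in G245S and -0.060 in R273H. HNRNPA1, the most abundant of all by CPM, gave 0.049 ± 0.11 in G245S and -0.06 ± 0.10 in R273H, and HNRNPA2B1 gave -0.10 ± 0.097 and -0.06 ± 0.096. The hnRNP F/H family had medians of 2.3e-05 and 0.011. Its member HNRNPH1 gave -0.10 ± 0.094 and -0.059 ± 0.10. In the hnRNP U family, HNRNPU, a scaffold of chromatin and RNA, was at -0.00022 ± 0.11 in G245S and -0.089 ± 0.10 in R273H. HNRNPD and HNRNPDL, which bind AU-rich elements of unstable mRNAs, gave -0.079 ± 0.096 and 0.019 ± 0.095 in R273H. HNRNPK, a poly-C binder known as a cofactor of p53 in transcription, gave -0.061 ± 0.097 and -0.019 ± 0.094, and HNRNPM gave -0.023 ± 0.096 and -0.044 ± 0.11 (log2 fold change ± SE).

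Genes with a GGCUGG match in the 3′UTR had a median difference of -0.054 in G245S (16 genes) against -0.021 for the 21 tested genes without one. In R273H the medians were -0.082 and -0.020, and between the mutants -0.023 and -0.0032. The range of the genes with a match, -0.19 to 0.27 in G245S, took in that of the genes without, -0.12 to 0.18. In R273H the range with a match, -0.148 to 0.136, lay inside that without, -0.149 to 0.168. Between the mutants the range with a match, -0.134 to 0.059, also lay inside that without, -0.161 to 0.097. No test was made of these splits, and they were not refitted with WT replicate 3.

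Other splicing genes also gave 0 calls. Of 44 genes of the core spliceosome, 0 passed the test in each comparison, with medians of -0.013, -0.0067 and 0.0054 in G245S, in R273H and between the mutants, and 0, 2 and 0 genes at an unadjusted p under 0.05. DDX46, a helicase of the U2 particle, was the lowest in both comparisons with WT, at -0.19 ± 0.097 and -0.29 ± 0.091. XAB2, at a mean of only 5.55 CPM in WT, was the highest, at 0.16 ± 0.21 and 0.19 ± 0.21. The adjusted p of DDX46 in R273H was 0.564 (edgeR). Between the mutants, CWC22 was the highest at 0.18 ± 0.092 and SF3B4 the lowest at -0.11 ± 0.078.

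Of 22 kinases, import factors and co-factors of SR proteins, 0 passed in each comparison. The medians were 0.020, -0.058 and -0.062, with 1, 0 and 0 genes at an unadjusted p under 0.05. CLK4, a kinase that phosphorylates SR proteins in the nucleus, was the highest in G245S at 0.20 ± 0.14 and SCAF8 the lowest at -0.21 ± 0.096. In R273H, SCAF1 was the highest at 0.17 ± 0.095 and PNN, a speckle-associated co-factor, the lowest at -0.24 ± 0.12. Between the mutants, the kinases CLK3 and CLK1 were the highest and the lowest, at 0.18 ± 0.11 and -0.19 ± 0.093.

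Of the other splicing regulators, 33, 34 and 33 gene identifiers were tested in the 3 comparisons, with MATR3 counted under both of its identifiers. 0 passed in each, with medians of 0.010, -0.045 and -0.051. The counts at an unadjusted p under 0.05 were 3, 3 and 0, made up in both mutants of PTBP2 and the pair of MATR3 identifiers. PTBP2, the neuronal relative of the polypyrimidine tract binder PTBP1, was the lowest in both, at -0.34 ± 0.12 and -0.42 ± 0.12, with adjusted p = 0.663 and 0.401 (edgeR). NOVA2, at a mean of only 3.47 CPM in WT and 4.65 CPM in G245S, was the highest in G245S at 0.44 ± 0.24. ESRP2, counted at 0.744 CPM in the mean of WT, was the highest in R273H at 0.53 ± 0.54. Between the mutants, MBNL2 was the highest at 0.15 ± 0.17 and NOVA2 the lowest at -0.28 ± 0.23.

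Few reads were assigned to annotated pseudogenes of these genes. The authors divided a read that aligned to several places among them, and 135 annotated pseudogenes named after these genes held 0.238% of the genes' own counts over the fitted libraries. The share was largest for HNRNPC (2.24%) and HNRNPA3 (1.66%), and the 74 pseudogenes named after HNRNPA1 held 0.354% of its counts. Protein-coding relatives are not in these shares, such as HNRNPA1L3 at a mean of 82.4 CPM beside 1210 CPM for HNRNPA1. HNRNPUL2-BSCL2, a readthrough transcript of a pair of neighbouring genes at 30.6 to 36.4 CPM, shares exons with HNRNPUL2, and its values and those of HNRNPUL2 are uncertain for that reason.

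**Figure D5:**
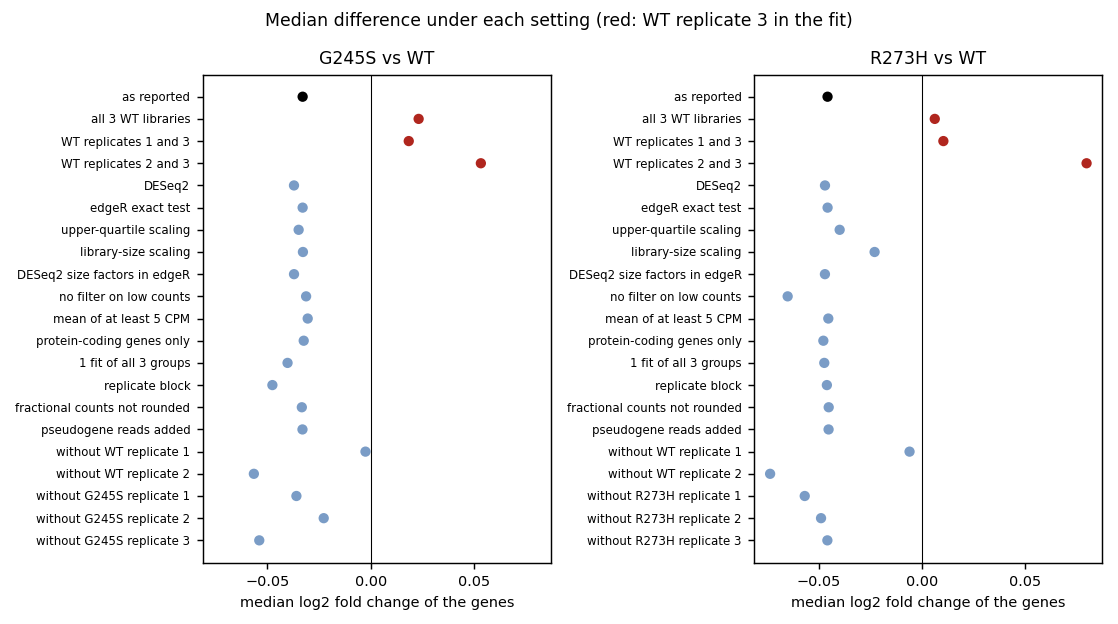
Each point is the median fitted log2 fold change of the tested SR and hnRNP genes under one way of processing, for G245S and R273H against WT. The reported value is black, settings with WT replicate 3 in the fit are red and lie above 0, and all the others, in blue, lie below 0.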

How the data were processed

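RNA-seq of 9 libraries was analysed from expected counts that the authors deposited without normalization: per the methods, reads were filtered with fastp 0.24.0, aligned with STAR 2.7.11, deduplicated by molecular identifier and counted per gene with featureCounts (Subread 2.1.1), strand-specifically and with multi-mapping reads shared as fractions. The labels give the build as GRCh38. The other 9 columns of sample values, in CPM, were not used here. Gene lengths are deposited as a further column.

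Counts were rounded to whole numbers. A depth rule dropped any lowest WT library holding fewer than 4096044 counts (0.5 of the median library total among the others), which removed WT replicate 3. The paper left out 1 WT replicate without naming it. Genes were filtered with filterByExpr, scaled with TMM and tested in edgeR 4.0.16 by quasi-likelihood (limma 3.58.1, R 4.3.3 and the data.table package, version 1.17.8), and p-values were adjusted by Benjamini-Hochberg over every gene tested, with calls made under 0.05. DESeq2 1.42.0 was an alternative. Intervals are at 95%, from the fitted SE. Deviations in the heat map used a pseudocount of 0.5 CPM. The floor is 3 counts, and floors cover counting error only. The scripts were tested on simulated data.

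Named genes were SRSF2 and TRA2B, the 3 highest and 3 lowest differences in each comparison with a mean of at least 5 CPM, the 3 highest and 3 lowest levels, genes that did not pass the filter, and the ends of the 3 other splicing lists. Any other gene was named after its values were seen. The genes and lists were chosen with earlier results of these data known. Alternatives covered the WT libraries used, each replicate left out, the replicate block, scaling, filters, rounding, pseudogene reads, and the test. 3′UTR sequences came from GENCODE release 44, to which all 41 genes matched by identifier, and the windows were identical to hg38. Of the 25 windows, those of a few genes described in the text are printed. Python 3.11.15 and matplotlib 3.10.9 were used for sequences and plots.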

Additional observations from a re-analysis of the deposited data

How the results depend on the processing

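In all 20, 20 and 18 alternatives for G245S, R273H and the mutants against each other, 0 SR and hnRNP genes were called, and the lowest adjusted p over these alternatives was 0.50, 0.565 and 0.264 (edgeR or DESeq2). The median difference moved with the WT libraries used: in G245S it was 0.023 with all 3, 0.018 with replicates 1 and 3 and 0.053 with replicates 2 and 3, and in R273H it was 0.0062, 0.010 and 0.080. Leaving out each replicate in turn gave -0.057 to -0.0026 in G245S, -0.073 to -0.0060 in R273H (the highest without WT replicate 1) and -0.037 to 0.00086 between the mutants, the lowest without R273H replicate 3 and the highest without R273H replicate 2. Without WT replicate 1 or 2, 1 WT library was left and was assumed to vary like the other group. Scaling by library size alone gave 0.0075 between the mutants. With all 3 WT libraries, an alternative added after the data were seen, groups did not overlap for 1 gene (lower, in place of 11) in G245S and for 1 (higher, in place of 2) and 0 (lower, in place of 8) in R273H. The cause of these moves was not tested, beyond that the low hnRNP values of WT replicate 3 enter the mean.

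Deviations of replicates with the same number gave r from -0.166 to 0.288 over 7 pairs, against -0.284 to 0.181 over 14 pairs of different numbers. Only WT replicates 1 and 2 were fitted and their deviations mirror each other, so pairs with WT cannot show a shared effect. Between the mutants, pairs of the same number gave 0.154, 0.288 and -0.028, and pairs of different numbers gave -0.284 to 0.174. Whether the numbers pair the samples cannot be told from these values. With a replicate block, 0 SR and hnRNP genes were called, the medians were -0.048, -0.046 and -0.018, and HNRNPL (edgeR, adjusted p = 0.264) and HNRNPA1 (adjusted p = 0.531) were under an unadjusted 0.05 between the mutants. Over all genes the block gave 76, 47 and 59 calls in place of 20, 22 and 0, and no filter on low counts gave 144, 93 and 125. HNRNPR in G245S fell under an unadjusted p of 0.05 with DESeq2, the edgeR exact test, upper-quartile scaling, protein-coding genes only and 1 fit of all groups, with adjusted p of 0.663 or more. In the higher direction, SRSF12 (0.43, log2), HNRNPL (0.38) and HNRNPA1L3 (0.36) were under it in G245S with WT replicates 2 and 3, SRSF12 (0.40) without WT replicate 1, and HNRNPLL in R273H with WT replicates 2 and 3 (0.30) and without WT replicate 1 (0.29), the lowest adjusted p among these being 0.50. For single genes, 1038 values under an alternative kept their direction and their side of the threshold and 64 changed sign, 0 of them past it. The depth, 7325514 counts or more, leaves intervals under ±0.5 (log2) for genes from HNRNPUL2-BSCL2 (mean 33.9 CPM) upward, while HNRNPA1L2 against WT and SRSF12 in G245S against WT were not resolved to that size and the HNRNPCL genes were not tested.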

Other observations

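In WT replicate 3, 30 genes had at least 20 counts and at least 10 times the CPM of the highest other library. Of these, 0 were SR or hnRNP genes, and XIST and genes of the Y chromosome were left out of the count. The 30 genes were found after the values were seen. KLK2, a kallikrein of the prostate, had 64 counts (45.0 CPM) there and at most 0.345 CPM elsewhere, and KLK3 had 25 counts there and 0 in all others. TFF1, a secreted peptide of mucous epithelium, had 39 counts against at most 1, and SERPIND1, a clotting regulator of the liver, 50 counts against 0. CTSG, a neutrophil protease, had 26 counts against 0.

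HNRNPA1 and its relative HNRNPA1L3 both had fitted values below 0 in R273H against G245S, -0.11 ± 0.08 and -0.13 ± 0.083 (log2 fold change ± SE), and neither passed the test (edgeR, adjusted p = 0.994 for each). HNRNPA1L3 ranged from 74.5 to 95.04 CPM over the fitted libraries. Its counts include shared fractions of multi-mapping reads, so the pair is not independent.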
